A study of Mus musculus with 10 samples.

Results

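The immediate early genes are the genes that neurons switch on within minutes to hours of synaptic activity. A list of 36 of them, covering both the first and the second wave of induction, was followed in RNA from mouse motor cortex. The members were chosen by symbol, and each of the 36 matched 1 row among the 35275 genes of the table. The tissue came from C57BL/6 mice at postnatal day 22, 5 of wild type (WT) and 5 with an astrocyte conditional knockout of membralin (KO), labelled WT1 to WT5 and KO1 to KO5 here. Membralin, encoded by Tmem259, sits in the membranes of the endoplasmic reticulum. By its label the deletion is restricted to astrocytes, and no source used here gives its promoter or Cre line. The replicates are stated to be biological repeats, 1 library each. The comparison asks how the cortex differs when astrocytes lack membralin, in a study concerned with astrocytic handling of glutamate.

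Synaptic glutamate raises calcium in neurons through NMDA receptors and L-type calcium channels. Calcium and the MAP kinase cascade then activate the transcription factors CREB, SRF and MEF2, which need no new protein to induce the first wave. Many first-wave products are themselves transcription factors (the AP-1, EGR and NR4A families, Npas4), and others are feedback inhibitors such as the MAP kinase phosphatases. The second wave includes secreted and synaptic proteins, among them Bdnf, Nptx2, Inhba and Vgf, that adjust excitatory and inhibitory synapses.

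The start regions of the members were searched for elements known to control activity-regulated genes. RefSeq promoters on GRCm38.p6, the build to which the files' mm10 corresponds, were at hand for 26 of the 36 members; Egr1, Egr3, Arc, Nptx2, Vgf, Dusp4, Ier2, Klf10, Sik1 and Trib1 had no entry. In the 250 bases before the start, the cyclic AMP response element bound by CREB (TGACGTCA, either strand) occurred in 4 of the 26, Btg2, Dusp1, Maff and Plk2, and in 1.55% of all 32851 promoters of the table. Its core (TGACG, either strand, also counted inside the full element) occurred in 18 of the 26 and in 17.8% of all promoters. A match of letters describes the sequence and does not show binding. The CArG box bound by SRF was found in Egr2 and Dusp5 and in 1.47% of all promoters. Bases farther upstream than these 250 were not searched, so a member without a match may hold an element there. An EGR site (GCGTGGGCG, either strand) was found in Maff and in 0.536% of all promoters, and an AP-1 site (TGACTCA, either strand) in none of the 26 members and in 4.46% of all promoters. Several members have more than 1 listed start, and a member counts here if any of its starts holds the element; over genes rather than promoters, the background shares were 1.77%, 19.8%, 1.62%, 0.622% and 5.16% in the same order. The following 5 stretches of 200 bases before the start show what these regions look like, read 5′ to 3′ on the strand of the gene, with the core in capitals wherever it occurs on either strand. Fos (chr12:85473690-85473889, plus strand) and Egr4 (chr6:85513590-85513789, minus strand) are first-wave factors. Nr4a1 (chr15:101266646-101266845, plus strand) is one of the members that divided the libraries by Omp below, Plk2 (chr13:110394844-110395043, plus strand) holds the full element, and Inhba (chr13:16011651-16011850, plus strand), a member that rose, holds neither form.
Fos: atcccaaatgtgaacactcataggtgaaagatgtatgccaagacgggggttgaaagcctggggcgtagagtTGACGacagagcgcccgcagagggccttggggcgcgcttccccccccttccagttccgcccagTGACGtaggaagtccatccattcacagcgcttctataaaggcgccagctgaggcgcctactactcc
Egr4: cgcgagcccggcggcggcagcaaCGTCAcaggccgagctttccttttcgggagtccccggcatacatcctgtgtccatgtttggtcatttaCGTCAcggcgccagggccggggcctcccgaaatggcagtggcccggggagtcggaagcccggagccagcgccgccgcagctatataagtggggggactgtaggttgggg
Nr4a1: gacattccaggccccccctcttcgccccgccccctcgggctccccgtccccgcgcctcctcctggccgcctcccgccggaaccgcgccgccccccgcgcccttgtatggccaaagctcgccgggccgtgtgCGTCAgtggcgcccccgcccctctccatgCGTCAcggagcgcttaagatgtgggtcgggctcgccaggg
Plk2: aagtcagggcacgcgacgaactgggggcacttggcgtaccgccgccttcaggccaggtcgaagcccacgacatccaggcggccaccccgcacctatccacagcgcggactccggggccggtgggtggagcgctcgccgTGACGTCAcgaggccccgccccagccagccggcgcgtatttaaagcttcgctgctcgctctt
Inhba: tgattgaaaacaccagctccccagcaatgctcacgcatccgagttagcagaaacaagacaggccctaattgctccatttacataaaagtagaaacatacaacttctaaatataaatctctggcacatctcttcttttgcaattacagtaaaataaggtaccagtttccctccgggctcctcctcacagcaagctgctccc
Counted back from the base before the start, the cores in these stretches began at -129 and -66 in Fos, at -177 and -109 in Egr4 and at -69 and -40 in Nr4a1, and the full element of Plk2 spanned -62 to -55. Nr4a1 also holds cores at -233 and -213, in the 250 bases searched but before the printed stretch. Of the called members with an entry, Egr4 and Nr4a3 hold the core, and Fosl2, Jun, Gadd45b and Inhba do not.

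Libraries held between 22793058 and 28827871 fragments, and a member held between 31 and 17768 fragments in a library. Tmem259 measured 25.5, 23.8, 25, 32.4 and 30.4 FPKM in WT1 to WT5 and 20.1, 18.5, 34.4, 16.9 and 26.2 FPKM in KO1 to KO5; the library labelled KO3 was the highest of the 10, and the difference did not pass (log2 difference -0.27, SE 0.16, limma adjusted p = 0.275). Gfap, the intermediate filament of astrocytes, was 106 FPKM in the library labelled KO3 and between 426 and 673 FPKM in the other KO libraries. With the library labelled KO3, the highest value, left out, Tmem259 passed lower (log2 difference -0.42, SE 0.12, limma adjusted p = 0.0279). KO5 lay inside the WT range of Tmem259, and KO1, KO2 and KO4 lay below it. The targeted gene thus gives no check of the labels of KO3, where it was above every WT library, and KO5. By label only astrocytes lose it, and the RNA is of whole cortex, so its level cannot settle the label of a library. The directions given for KO include both libraries except where a removal is stated. Omp, a gene of olfactory sensory neurons whose axons end in the olfactory bulb, was at least 1 FPKM in 6 libraries, WT3, WT4 and KO1 to KO4, and under 1 FPKM in WT1, WT2, WT5 and KO5. The markers of cortical excitatory neurons were present in each library, with a summed level of 1670 to 1992 FPKM in WT and 1499 to 1652 FPKM in KO.

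In KO cortex 4 of the 36 members fell and 3 rose. Those that fell were Egr1, Egr4, Nr4a3 and Fosl2, all transcription factors. Those that rose were Jun, a transcription factor, Gadd45b, a stress-induced regulator of growth arrest and DNA demethylation, and Inhba, which encodes the secreted activin A subunit. Genes were called in limma at an adjusted p under 0.05 on log2(FPKM + 1), a scale that understates the change of low genes. Of the 14497 genes tested 3.51% were called lower and 9.77% higher (13.3% in all), so the number of members that rose is near the background and the number that fell is above it. With median-of-ratios scaling the split over all genes was 946 lower and 607 higher, against 509 lower and 1417 higher as deposited, and among the members it was 6 lower, Dusp6 and Nr4a2 added, and 2 higher, without Jun (background 6.53% and 4.19%). The median log2 difference of the 36 members was -0.015, beside 0.078 over all genes tested. In bulk tissue a lower value cannot be divided into fewer cells of a type and less RNA per cell.

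**Figure D1:**
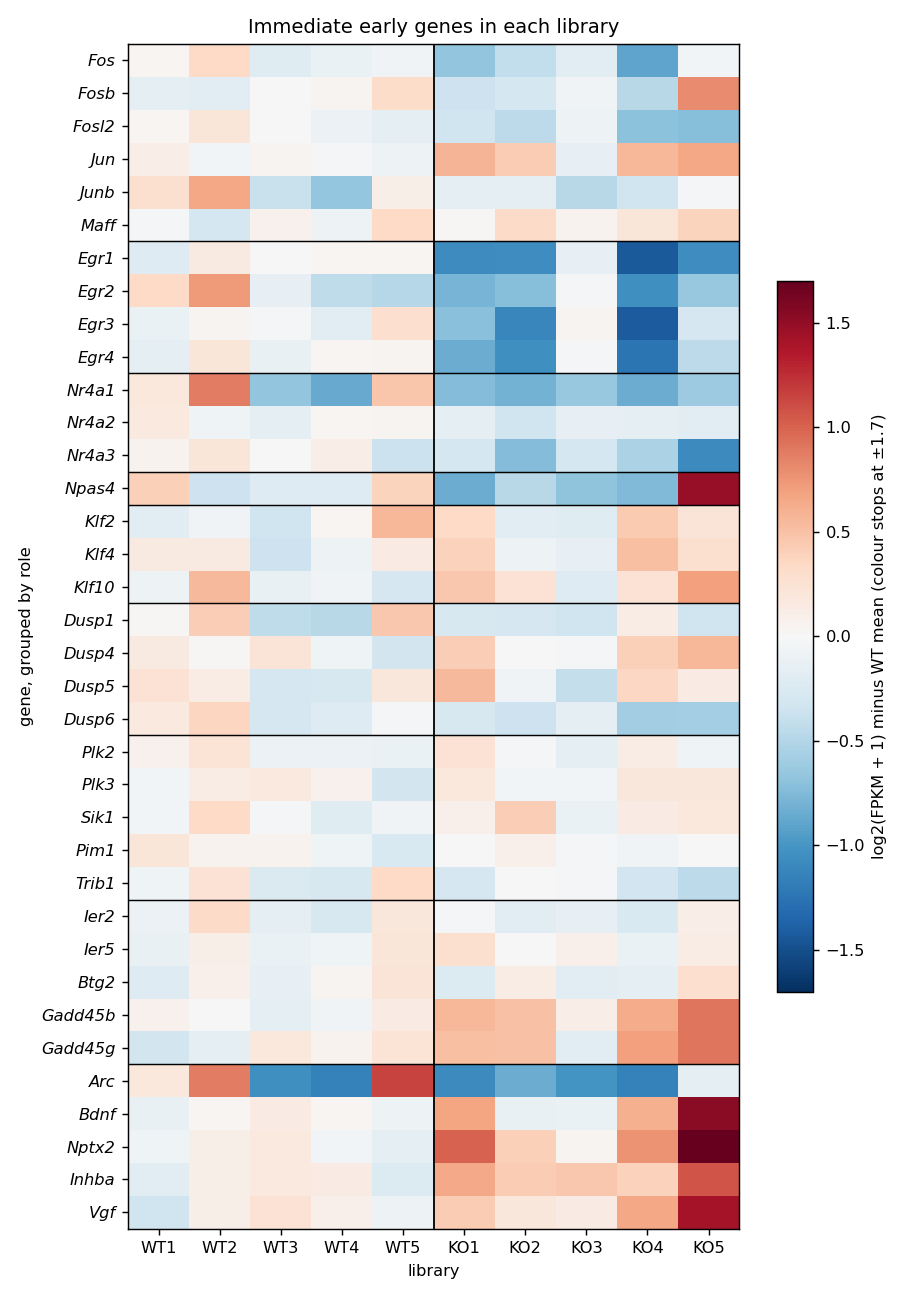
Each row is 1 of the 36 genes, grouped by role, and each column 1 library; colour gives log2(FPKM + 1) minus the WT mean of that gene. The EGR rows are blue in KO1, KO2, KO4 and KO5 and near white in the library labelled KO3, while Bdnf, Nptx2, Inhba and Vgf are reddest in KO5.

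Leaving out the library labelled KO3 gave 9 members lower and 6 higher, where 6.36% and 19.6% of 14522 genes were called. The 5 added on the lower side were Egr2, Egr3, Fos, Nr4a2 and Dusp6, and the 3 added on the higher side were Gadd45g, Nptx2 and Vgf. That library lay within the WT range for 31 of the 36 members, against 12 for each of KO1, KO4 and KO5 and 18 for KO2. In 6 members, Egr1, Egr2, Egr3, Egr4, Fosl2 and Nr4a2, each of the other 4 KO libraries lay below every WT library, which was so for 5.8% of all genes tested. In 5 members, Jun, Gadd45b, Gadd45g, Nptx2 and Inhba, each of these 4 lay above every WT library (17.8% of all genes). With all 5 KO libraries, Inhba was the 1 member whose groups did not overlap in the higher direction (5.7% of all genes) and 0 did so in the lower direction (1.85% of all genes). The number of calls with all libraries also rested on single libraries: without WT1, without KO2 or without KO4 it was 0 members and 2 genes in all in limma, with 9 or 10 members lower and 6 to 8 higher at an unadjusted p under 0.05. Over all genes 3943, 4101 and 3727 were under that threshold in these runs, in the same order. With all libraries it was 4758 of 14497.

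**Figure D2:**
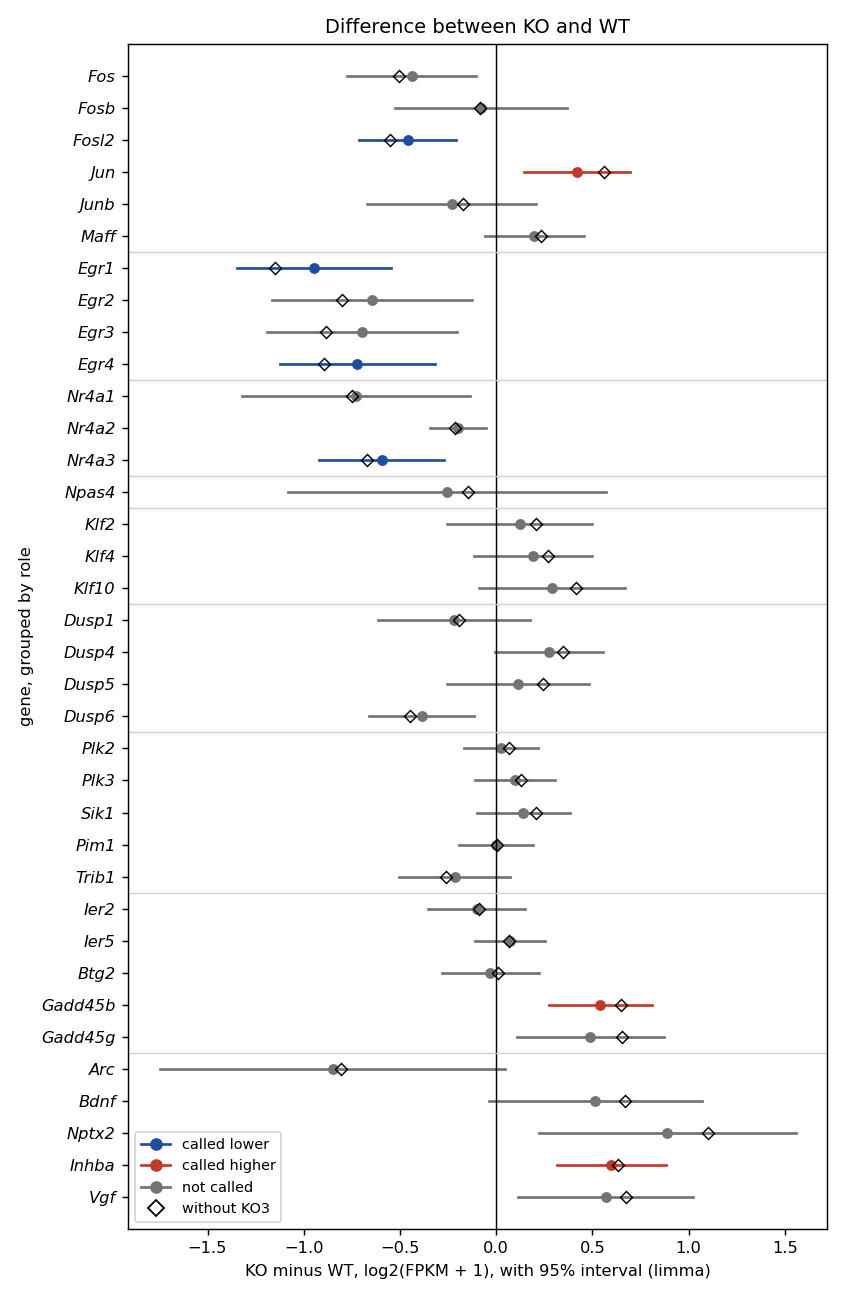
Points are log2(FPKM + 1) differences, KO minus WT, with 95% intervals from limma over 5 and 5 libraries; open diamonds leave out the library labelled KO3. The 4 EGR genes lie left of 0, the KLF genes lie at or right of 0 with intervals that include it, and the diamonds lie farther from 0 than the points for Egr1, Egr4, Jun, Gadd45b and Nptx2.

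The EGR family, zinc finger factors that carry activity signals to late response genes, had lower KO means in all 4 genes, and 2 of the 4 fell. Egr1 (mm10, ENSMUSG00000038418, chromosome 18, 34859823 to 34864984, plus strand) stood at 67, 86.8, 77.2, 79.9 and 79.8 FPKM in WT1 to WT5 and 36.6, 37, 70.5, 28.3 and 37 FPKM in KO1 to KO5. The library labelled KO3 was inside the WT range and the other 4 KO libraries were far below it. Its group means were 78.1 ± 7.15 FPKM over the WT mice against 41.9 ± 16.4 FPKM over the KO mice (SD, n = 5 each), and the fall passed the test (log2 difference -0.95, SE 0.18, limma adjusted p = 0.0186). A two-sided permutation test of this gene gave an exact p of 0.0159. Over the 4 other KO libraries the mean of Egr1 was 34.7 ± 4.31 FPKM (SD, n = 4) and the log2 difference -1.15 (limma adjusted p = 5.1e-05). Egr4, a neuron-restricted member of the family, measured 20.02, 25.8, 20.4, 22.8 and 23.2 FPKM in WT1 to WT5 and 12, 10.4, 21.8, 8.87 and 16.1 FPKM in KO1 to KO5. It fell too (log2 difference -0.72, SE 0.19, limma adjusted p = 0.0307), with the library labelled KO3 again among the WT values and KO4 the lowest.

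Egr3, which is also needed for muscle spindle development, measured 56.7, 63.3, 59.5, 53.5 and 74.9 FPKM in WT1 to WT5 and 36.9, 27.8, 63.3, 22.3 and 49.9 FPKM in KO1 to KO5. Its groups overlapped through the library labelled KO3 alone, and the difference did not pass with all libraries (log2 difference -0.70, SE 0.23, limma adjusted p = 0.0609, 95% interval -1.19 to -0.20). It passed without that library (log2 difference -0.88, limma adjusted p = 0.0064). Egr2, also known as Krox20 and required for peripheral myelin, was the least abundant of the 4 and measured 4.33, 5.95, 2.83, 2.12 and 2.02 FPKM in WT1 to WT5 and 1.44, 1.56, 3.16, 1.04 and 1.69 FPKM in KO1 to KO5. WT2 was far above WT5, the library labelled KO3 lay between them and the 4 other KO libraries below all WT libraries. The difference did not pass with all libraries (log2 difference -0.65, SE 0.24, limma adjusted p = 0.0864) but did without the library labelled KO3 (limma adjusted p = 0.0217).

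**Figure D3:**
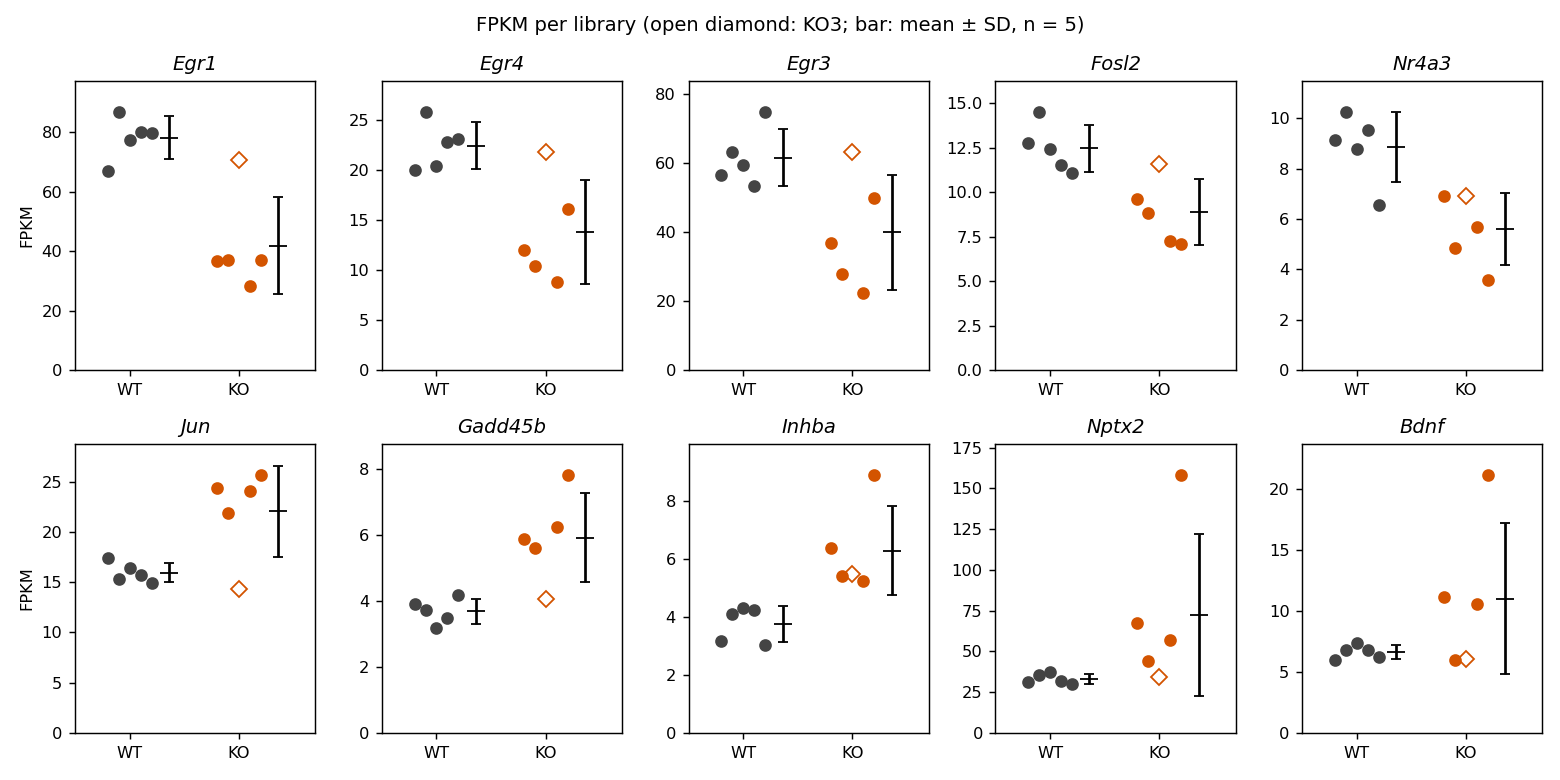
Each point is the FPKM of 1 library, WT in grey and KO in orange, with the library labelled KO3 as an open diamond and bars for mean ± SD (n = 5). The top row shows 5 transcription factors with lower KO means, and the bottom row 5 genes with higher KO means; KO5 holds the highest value of Nptx2 (158 FPKM) and Bdnf (21.2 FPKM).

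The AP-1 members, leucine zipper proteins that bind DNA as pairs, numbered 6, of which Fosl2 fell and Jun rose. Fosl2, which encodes Fra-2, measured 12.8, 14.5, 12.4, 11.5 and 11.1 FPKM in WT1 to WT5 and 9.6, 8.82, 11.6, 7.28 and 7.08 FPKM in KO1 to KO5. It fell (log2 difference -0.46, SE 0.12, limma adjusted p = 0.029), and the library labelled KO3, at 11.6 FPKM, was the 1 KO library inside the WT range. Jun, the partner of the FOS proteins, measured 17.4, 15.3, 16.5, 15.7 and 14.9 FPKM in WT1 to WT5 and 24.4, 21.9, 14.3, 24 and 25.7 FPKM in KO1 to KO5. Here the 4 other KO libraries stood above all WT libraries and the library labelled KO3 stood below them, and the rise passed narrowly (log2 difference 0.42, SE 0.13, limma adjusted p = 0.0482). An antisense gene on the other strand of Jun, Junos, averaged 1.10 FPKM, and the value of Jun is uncertain where the 2 overlap, since no label states whether strand was used in counting. Without the library labelled KO3 the log2 difference of Jun was 0.56 (limma adjusted p = 1.9e-04).

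Fos, a widely used marker of recently active neurons, measured 8.98, 11.3, 7.45, 7.95 and 8.3 FPKM in WT1 to WT5 and 5.09, 6.3, 7.61, 4.24 and 8.43 FPKM in KO1 to KO5. KO4 and KO1 were the lowest, while KO5 and the library labelled KO3 lay within the WT range, and the difference did not pass (log2 difference -0.44, SE 0.15, limma adjusted p = 0.0737). Junb measured 29.2, 38.4, 18.2, 14.8 and 25.6 FPKM in WT1 to WT5 and 21.2, 21.2, 17, 18.8 and 23.5 FPKM in KO1 to KO5. Its WT values spread more widely than its KO values, and the difference did not pass (limma adjusted p = 0.45, 95% interval -0.67 to 0.21). Fosb, whose spliced form accumulates with repeated activity, averaged 4.99 ± 0.886 FPKM over the WT mice against 4.96 ± 2.52 FPKM over the KO mice (SD, n = 5 each). KO5 was at 9.37 FPKM, while KO1, KO2 and KO4, at 3.64, 3.81 and 3.29 FPKM, lay below every WT library. Without KO5 the log2 difference of Fosb was -0.30 (limma adjusted p = 0.113), and it passed lower with the library labelled KO3 also left out. Maff, a small MAF factor, averaged 0.927 ± 0.316 FPKM over the WT mice against 1.2 ± 0.243 FPKM over the KO mice (SD, n = 5 each). Neither Fosb nor Maff passed with all libraries.

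Among the NR4A nuclear receptors, orphan receptors without a known ligand that are induced with the first wave, Nr4a3 fell. Nr4a3 measured 9.14, 10.2, 8.77, 9.54 and 6.56 FPKM in WT1 to WT5 and 6.92, 4.83, 6.92, 5.7 and 3.59 FPKM in KO1 to KO5. KO5 was the lowest library, WT5 was the lowest WT library, and 3 KO libraries lay below it (log2 difference -0.60, SE 0.15, limma adjusted p = 0.0291). Nr4a2, also needed for dopamine neuron identity, measured 13.7, 11.4, 10.7, 12.4 and 12.5 FPKM in WT1 to WT5 and 10.7, 9.36, 10.9, 10.7 and 10.4 FPKM in KO1 to KO5. The 4 other KO libraries lay just below WT3, the lowest WT library, and the library labelled KO3 just above it. The shift was small and did not pass with all libraries (log2 difference -0.20, SE 0.067, limma adjusted p = 0.0661). Nr4a1, or Nur77, measured 24.2, 39.7, 13, 11.3 and 29.9 FPKM in WT1 to WT5 and 12.4, 11.7, 13.3, 11.4 and 13.5 FPKM in KO1 to KO5. The KO values lay in a narrow band close to WT3 and WT4, far below WT1, WT2 and WT5, and the difference did not pass (log2 difference -0.73, SE 0.27, limma adjusted p = 0.0884).

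Npas4, a neuron-specific factor induced by calcium alone that recruits inhibitory synapses, measured 4.35, 2.18, 2.48, 2.46 and 4.27 FPKM in WT1 to WT5 and 1.26, 1.91, 1.51, 1.39 and 10.2 FPKM in KO1 to KO5. KO1 to KO4 lay below the lowest WT library and KO5 above the highest. Its difference did not pass (log2 difference -0.26, 95% interval -1.08 to 0.57, limma adjusted p = 0.674). Without KO5 it passed, at a log2 difference of -0.69 (limma adjusted p = 0.0387), so 1 library decides that call.

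The secreted effectors Inhba, Nptx2, Bdnf and Vgf had higher KO means, and 1 of them, Inhba, passed with all libraries. Inhba (mm10, ENSMUSG00000041324, chromosome 13, 16011851 to 16027211, plus strand) stood at 3.18, 4.09, 4.33, 4.23 and 3.04 FPKM in WT1 to WT5 and 6.39, 5.41, 5.49, 5.23 and 8.92 FPKM in KO1 to KO5. Every KO library, including the one labelled KO3, lay above every WT library, and the rise passed (log2 difference 0.60, SE 0.13, limma adjusted p = 0.0209). A two-sided permutation test gave an exact p of 0.00794, the smallest that 252 assignments allow. Nptx2, a pentraxin secreted at excitatory synapses on interneurons that gathers AMPA receptors, measured 31.3, 35.5, 37.4, 32.1 and 29.7 FPKM in WT1 to WT5 and 67.4, 43.9, 34.2, 57 and 158 FPKM in KO1 to KO5. KO5 was the highest by far, the library labelled KO3 lay among the WT libraries, and the difference did not pass with all libraries (log2 difference 0.89, SE 0.31, limma adjusted p = 0.0709) but did without the library labelled KO3 (log2 difference 1.10, limma adjusted p = 0.015). Without KO5 the log2 difference of Nptx2 was 0.56 (limma adjusted p = 0.0575).

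Bdnf, the neurotrophin that signals through the TrkB receptor, measured 6.01, 6.79, 7.42, 6.81 and 6.21 FPKM in WT1 to WT5 and 11.2, 5.98, 6.08, 10.6 and 21.2 FPKM in KO1 to KO5. WT libraries agreed closely, KO1, KO4 and KO5 exceeded them, and KO2 lay just below them; the difference did not pass (limma adjusted p = 0.18, 95% interval -0.038 to 1.07). Vgf, a neuropeptide precursor and the most abundant member, averaged 102 ± 15.3 FPKM over the WT mice against 159.8 ± 66.2 FPKM over the KO mice (SD, n = 5 each) and did not pass with all libraries (log2 difference 0.57, SE 0.21, limma adjusted p = 0.0838), but did without the library labelled KO3 (limma adjusted p = 0.0332). Without KO5 the log2 difference of Bdnf was 0.26 (limma adjusted p = 0.31) and that of Vgf 0.36 (limma adjusted p = 0.101). KO5 held the highest value of 14 of the 36 members, these 4 effectors and Npas4 among them, and WT2 that of 10.

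Arc, the effector that drives removal of AMPA receptors from active synapses, measured 40.4, 65.9, 16.7, 15.6 and 79.9 FPKM in WT1 to WT5 and 16.2, 19.4, 17.1, 15.4 and 32.1 FPKM in KO1 to KO5. Its WT values fell into a low pair, WT3 and WT4, and 3 high libraries, and KO1 to KO4 lay close to the low pair. The group difference did not pass (log2 difference -0.85, SE 0.41, limma adjusted p = 0.172, 95% interval -1.75 to 0.047).

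Gadd45b measured 3.91, 3.73, 3.19, 3.49 and 4.18 FPKM in WT1 to WT5 and 5.9, 5.6, 4.06, 6.24 and 7.84 FPKM in KO1 to KO5. It rose (log2 difference 0.54, SE 0.12, limma adjusted p = 0.0227), with the library labelled KO3 the 1 KO library among the WT values. Its paralog Gadd45g averaged 4.52 ± 0.867 FPKM over the WT mice against 6.89 ± 2.0 FPKM over the KO mice (SD, n = 5 each) and did not pass with all libraries (log2 difference 0.49, SE 0.18, limma adjusted p = 0.0797), but did without the library labelled KO3 (limma adjusted p = 0.00357). The other nuclear regulators, Ier2, Ier5 and the antiproliferative factor Btg2, had log2 differences of -0.10, 0.072 and -0.03, and none passed.

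No MAP kinase phosphatase, KLF factor or kinase passed in limma with all libraries and the deposited scaling, or in limma voom. Dusp6 was the 1 of these 12 members with an unadjusted p under 0.05 in limma with all libraries and the deposited scaling. It passed lower with median-of-ratios scaling (limma adjusted p = 0.0446). In limma voom Dusp4 was also under that threshold, higher in KO (unadjusted p = 0.0496, adjusted p = 0.149). Dusp6, the cytoplasmic phosphatase of ERK, averaged 16.7 ± 3.37 FPKM over the WT mice against 12.4 ± 1.77 FPKM over the KO mice (SD, n = 5 each; log2 difference -0.39, SE 0.13, limma adjusted p = 0.059) and passed without the library labelled KO3 (limma adjusted p = 0.0243). Dusp1 measured 9.05, 12.2, 6.3, 6.14 and 12.6 FPKM in WT1 to WT5 and 7.2, 7.12, 6.81, 9.76 and 6.83 FPKM in KO1 to KO5. It overlapped broadly (limma adjusted p = 0.422, 95% interval -0.62 to 0.17). Dusp4 and Dusp5, nuclear phosphatases, had log2 differences of 0.27 and 0.11. Plk2, a kinase that weakens overactive synapses, was among the most abundant members, at 60.4 ± 6.75 FPKM over the WT mice against 61.5 ± 7.1 FPKM over the KO mice (SD, n = 5 each), and its interval was narrow (-0.17 to 0.22 on the log2 scale). Plk3, Sik1, Pim1 and the pseudokinase Trib1 had log2 differences of 0.096, 0.14, -0.00088 and -0.22. Klf2, Klf4 and Klf10 had log2 differences of 0.12, 0.19 and 0.29. Klf2 and Klf4 are also expressed by endothelial cells. Of 10 endothelial markers 1 rose, Itm2a, and 0 fell with all libraries, where 9.77% of all genes tested rose and 3.51% fell. At an unadjusted p under 0.05 in limma 1 was lower, and 0 passed lower in voom.

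Arc, Fos, Junb and Nr4a1 divided the libraries by Omp. In the 6 libraries with at least 1 FPKM of Omp, Arc ranged from 15.4 to 19.4 FPKM, and in the other 4 from 32.1 to 79.9 FPKM. Fos, Junb and Nr4a1 split the same way, with the 6 libraries at or below 7.95, 21.2 and 13.3 FPKM and the 4 others at or above 8.3, 23.5 and 13.5 FPKM. The gaps of Fos and Nr4a1 are small, and that of Nr4a1 rests on KO5. These 4 of the 36 members had no overlap between the 2 sets of libraries, against 0.372% of all genes tested in that direction; 0 members lay higher in the 6 libraries, against 1.63% of all genes. The 6 libraries hold WT3 and WT4 and 4 KO libraries, so Omp and genotype are partly confounded. For Egr1, WT3 and WT4 stood at 77.2 and 79.9 FPKM, among the other WT libraries, and KO5 at 37 FPKM, with KO1 and KO2.

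**Figure D4:**
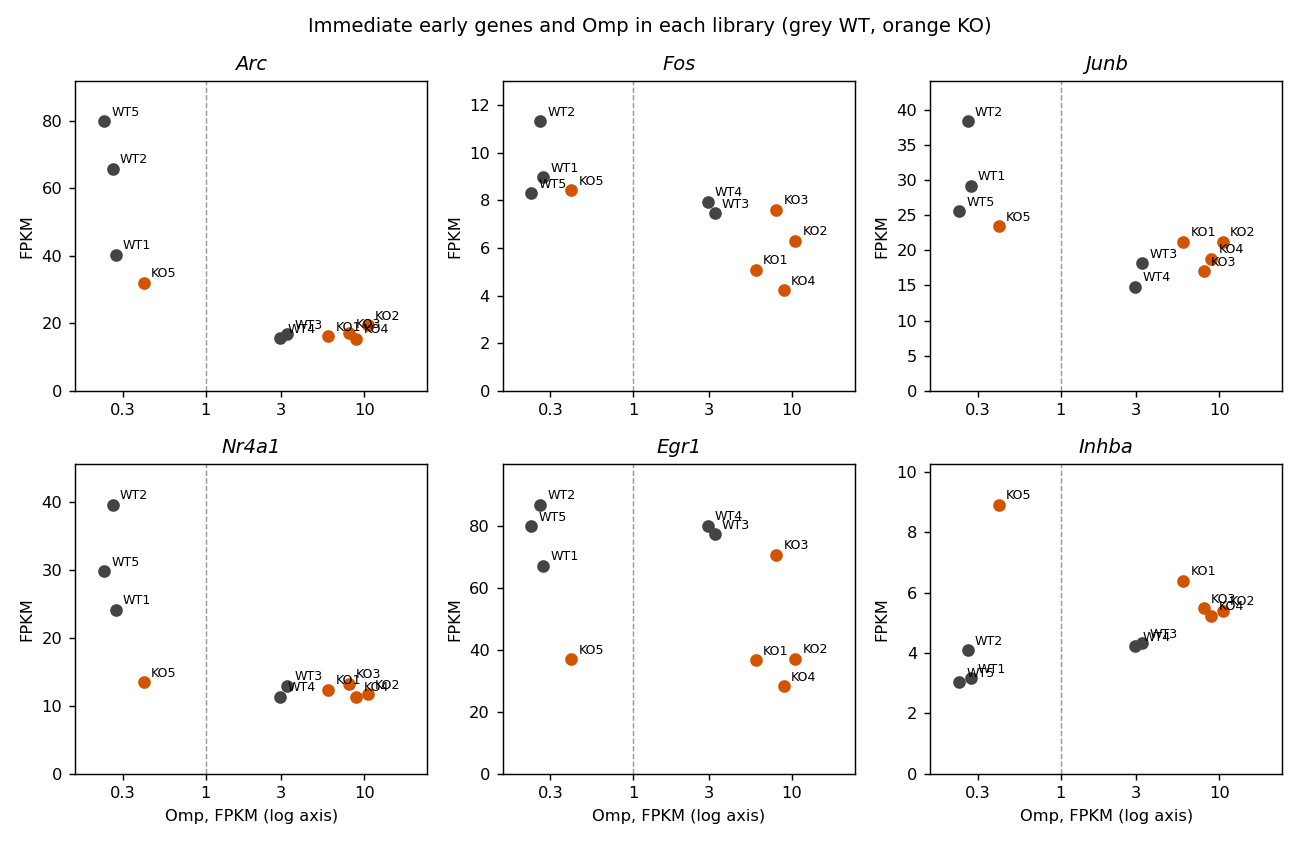
Each point is 1 library, with the FPKM of Omp on a log axis and the FPKM of the named gene on a linear axis from 0; the dashed line marks 1 FPKM of Omp. Arc, Fos, Junb and Nr4a1 are higher left of the line in both genotypes, by little for Nr4a1 in KO5, whereas Egr1 and Inhba separate WT from KO on both sides apart from the library labelled KO3 for Egr1.

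Within the libraries of at least 1 FPKM of Omp, 2 WT and 4 KO, the log2 difference of Arc was 0.069 and that of Nr4a1 0.0027, while those of Egr1, Fosl2 and Nr4a3 were -0.94, -0.34 and -0.53. In this small fit 1 gene and 0 members passed in limma. At an unadjusted p under 0.05, 5 members were lower and 2 higher, where 1911 genes in all were under it. With 2 WT and 3 KO libraries, the one labelled KO3 removed, Egr1, Egr2, Egr3, Egr4, Fosb, Fosl2 and Nr4a3 passed lower and Gadd45b, Gadd45g, Jun, Klf10 and Nptx2 higher (background 3.13% and 6.84%, 9.97% in all). Under 1 FPKM of Omp there was 1 KO library, KO5, whose Tmem259 differed from that of WT1, WT2 and WT5 by -0.014 on the log2 scale. Its values against these 3 are a description of that library: the log2 difference was -1.05 for Egr1, 1.17 for Inhba, 1.60 for Bdnf and 2.27 for Nptx2.

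The mean log2(FPKM + 1) of 11 olfactory bulb markers was also entered as a covariate, a score that partly moves with genotype. With all libraries 0 of 14497 genes were then called in limma (2875 at an unadjusted p under 0.05), and 0 members (3 lower and 9 higher at an unadjusted p under 0.05). With the library labelled KO3 left out, Egr1, Egr4, Fosl2 and Nr4a3 passed lower and Jun, Gadd45b, Gadd45g, Inhba, Bdnf and Nptx2 higher, where 3.44% and 7.13% of genes were called. The log2 difference of Egr1 was -1.13 in that fit, beside -1.15 with genotype alone, and that of Nr4a3 -0.84 beside -0.67. For Arc it was 0.25 beside -0.81, and for Nr4a1 -0.14 beside -0.75. For Bdnf it was 1.05 (limma adjusted p = 0.04) beside 0.67 (limma adjusted p = 0.0609).

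**Figure D5:**
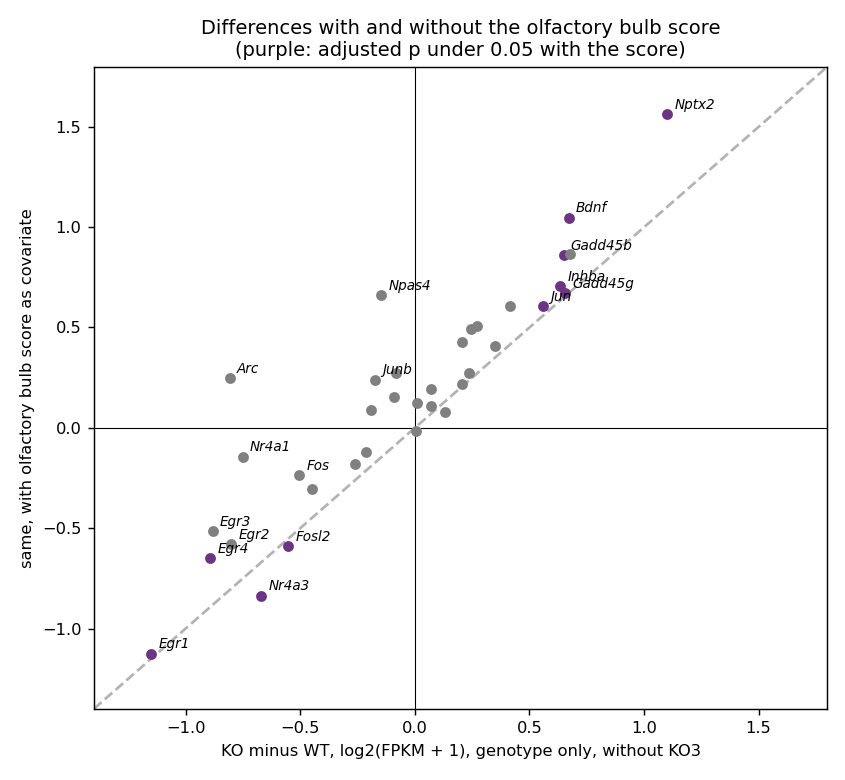
Each point is 1 of the 36 genes, with the log2 difference, KO minus WT, from genotype alone on the x axis and with the score of olfactory bulb markers added on the y axis, both without the library labelled KO3. Egr1, Fosl2 and Jun lie near the dashed line of equality, while Arc moves from -0.81 to 0.25.

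Upstream of the members, 8 of 39 genes of calcium, MAP kinase and CREB, SRF or MEF2 signalling fell and 2 rose, with a median log2 difference of -0.063. Of all genes tested 3.51% fell and 9.77% rose. This list and the other lists were chosen with earlier results of these data known. A count set beside that share is therefore a description and no test of a list. The counts of the upstream genes also depended on the libraries and model. Without the library labelled KO3 they were 10 lower and 3 higher, and over the alternative runs 0 to 11 lower and 0 to 4 higher. Camkk2, a kinase that activates other calmodulin kinases, averaged 101 ± 6.26 FPKM over the WT mice against 52.6 ± 24 FPKM over the KO mice (SD, n = 5 each) and had a log2 difference of -1.02. Camk2a, the main kinase of excitatory postsynaptic densities, averaged 820.4 ± 87.5 FPKM over the WT mice against 518 ± 109 FPKM over the KO mice (SD, n = 5 each; log2 difference -0.68, SE 0.13, limma adjusted p = 0.0186). Adcy1, a calcium-stimulated adenylyl cyclase, and Rasgrf2, a calcium-dependent activator of Ras, had log2 differences of -0.54 and -0.61. Elk1, a cofactor of SRF, and Map2k1, a kinase of ERK, were the 2 that rose, by 0.39 and 0.24 on the log2 scale. With median-of-ratios scaling Elk1 passed (limma adjusted p = 0.0416) and Map2k1 did not (limma adjusted p = 0.12). In the KO3-labelled library Camkk2 was 93.7 FPKM and Camk2a 708 FPKM, the highest KO value of each. Camk2a and Rasgrf2 are also markers of cortical excitatory neurons.

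Of 34 further activity-regulated genes 4 fell and 4 rose (median log2 difference 0.073), where 3.51% of all genes fell and 9.77% rose. Without the library labelled KO3 it was 5 and 10, and without WT1, KO2 or KO4 0 and 0. Scg2, a neuropeptide precursor of secretory granules, averaged 65.1 ± 13.1 FPKM over the WT mice against 116 ± 23.1 FPKM over the KO mice (SD, n = 5 each, log2 difference 0.83, SE 0.16, limma adjusted p = 0.0186). Atf3, a stress-induced factor, averaged 0.25 ± 0.141 FPKM over the WT mice against 1.14 ± 0.532 FPKM over the KO mice (SD, n = 5 each). Atf3 lay near the floor, with 3 to 90 fragments in a library. Rgs2, a regulator of G proteins, and Arf4 rose by 0.64 and 0.25 on the log2 scale. Neither Rgs2 nor Arf4 passed with median-of-ratios scaling (limma adjusted p = 0.0756 and 0.124), while Scg2 and Atf3 did. Bhlhe40, Pcsk1, the synaptic scaffold Homer1 and the clock gene Per1 had log2 differences of -0.49, -0.33, -0.46 and -0.40.

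Markers of cell types moved beside these changes, and their part in them was not tested apart from the olfactory bulb score. Of all genes tested 3.51% fell and 9.77% rose with all libraries as deposited. Without the library labelled KO3 it was 6.36% and 19.6%, and with median-of-ratios scaling 6.53% and 4.19%. Of 14 markers of cortical excitatory neurons 6 fell and 2 rose, with Rasgrf2, Camk2a, Cux2 and Rorb the lowest in p among the 6 and Foxp2 and Bcl11b the 2. Of 10 general neuron markers Eno2 and Tubb3 rose and 0 fell in limma with all libraries as deposited or in voom (2 lower at an unadjusted p under 0.05), while 2, Rbfox3 and Nefm, passed lower with median-of-ratios scaling or without the library labelled KO3. Their summed level was 1640 to 1831 FPKM in WT and 1743 to 1830 FPKM in KO. Of 10 GABAergic markers 7 rose, Dlx5, Gad1, Slc32a1 and Gad2 with the lowest p, and 1, Pvalb, fell, and their summed level was 267 to 359 FPKM in WT and 385 to 557 FPKM in KO. Gad1 and Gad2 make GABA, Slc32a1 loads it into vesicles, and the Dlx genes mark interneuron lineages of the ventral forebrain, which also supply the olfactory bulb. Of 10 olfactory bulb markers tested out of 11 listed 3 rose, Th, Sp8 and Calb2, with a summed level over the 11 of 11.7 to 61.0 FPKM in WT and 30.8 to 115 FPKM in KO. Of 9 striatal markers tested 4 rose, Pdyn, Penk, Tac1 and Ppp1r1b (218 to 682 FPKM summed in WT, 531 to 675 FPKM in KO). Pdyn, Penk and Tac1 encode neuropeptides of striatal projection neurons. Of 9 reactive astrocyte markers tested 8 rose, Cd44, Vim, Gfap and Gbp2 with the lowest p (115 to 155 FPKM summed in WT, 147 to 839.9 FPKM in KO). Of 10 microglial markers 5 rose, C1qa, C1qb, Itgax and Cd68 with the lowest p (139.5 to 177 FPKM in WT, 171 to 253 FPKM in KO), and 7 rose without the library labelled KO3. The 8 oligodendrocyte markers all had negative log2 differences (median -0.29; 1943 to 2388 FPKM summed in WT, 1512 to 2156 FPKM in KO); 1, Mal, fell with all libraries, 3 passed lower in voom, 5 with median-of-ratios scaling and 6 without the library labelled KO3. In the library labelled KO3 the reactive astrocyte markers summed to 147 FPKM and the microglial markers to 171 FPKM, the lowest KO value of each. Without that library 4 striatal, 3 cortical excitatory, 3 general neuron, 7 GABAergic, 9 reactive astrocyte and 7 microglial markers passed higher. With the olfactory bulb score added it was 0, 0, 0, 4, 8 and 4 (7.13% of all genes). Lower with the score were 6 cortical excitatory, 2 general neuron, 0 GABAergic and 4 oligodendrocyte markers (3.44% of all genes), beside 7, 2, 1 and 6 without it.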

How the data were processed

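Motor cortex RNA of 10 mice was isolated (Kurabo kit) and sequenced from NEBNext Ultra libraries, per the labels' protocols. The authors deposited FPKM per gene and library, per the file headers; mm10 and DESeq2 appear in the submitters' processing notes with no role given, and no source used here names the aligner, the counter or the annotation release. FPKM times gene length gave whole fragments in 100% of values above 0, within 0.02 of a whole number. No label says whether reads were counted by strand. Groups and replicate numbers came from the titles; the count differences of each of 45 library pairs exceeded sampling noise (chi-square per gene at least 7.17, where noise gives about 1).

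Genotypes were compared with limma 3.58.1 in R 4.3.3 (lmFit, eBayes with trend, genotype the only term) on log2(FPKM + 1) over the 14497 genes averaging 0.5 FPKM or more, two-sided, at a Benjamini-Hochberg adjusted p under 0.05. The step was tested on simulated fragments, with the same expected level of a gene in each library of a group. That simulation does not cover data in which a library stands apart from its group. Single values had an exact permutation test over 252 assignments. Members, lists and naming rule were chosen with earlier results of these data known: library values are given for called members and for Fos, Arc, Npas4, the EGR and NR4A genes, Bdnf, Junb, Dusp1 and Nptx2, and of each list up to 4 called genes a direction are named, those with the lowest p. Alternatives covered the pseudocount, filters, scaling, variance model, weights, a replicate block, the olfactory bulb covariate, voom on recovered fragments, an exact test per gene, thresholds and libraries left out. The 2 subsets by Omp without the library labelled KO3 or under 1 FPKM, and the TGACG core, were chosen after seeing the data.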

Additional observations from a re-analysis of the deposited data

Results flagged for a closer look

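In 8 of 74 groups of 5 libraries, 1 library stood apart from the other 4 of its genotype by Dixon's criterion. Chance gives about 1 in 20 for independent groups, but these groups reuse the same 10 libraries, so that rate is no test of the count. The library KO5 stood apart for 4 members: it was the highest KO value of Npas4 (10.2 FPKM), Fosb (9.37 FPKM), Nptx2 (158 FPKM) and Arc (32.1 FPKM). The library labelled KO3 was the highest KO value of Egr1 (70.5 FPKM). KO4 was the highest KO value of Dusp1 (9.76 FPKM), and WT2 was the highest WT value of Klf10 (10.6 FPKM) and Sik1 (8.64 FPKM).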

How the results depend on the processing

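The 7 calls among the members depended on the choice of libraries and model, while Egr1, Egr4, Nr4a3, Fosl2, Jun, Gadd45b and Inhba kept their directions in each alternative run. Leaving out 1 library gave 2 to 3769 genes called in KO against WT, 0 to 9 members lower and 0 to 6 higher; the lowest counts came without WT1, without KO2 or without KO4, and the highest without the library labelled KO3. Leaving out a second library besides that one gave 2407 to 3437 genes, 5 to 10 members lower and 5 to 9 higher, and Npas4 then had log2 differences of 0.082 without KO1 and 0.055 without KO4, and of -0.69 without KO5. With no filter on low values 465 genes, 1 member lower and 0 higher were called, and array weights gave 3557, 8 and 5. Adjusted p under 0.1 gave 3546 genes, 10 members lower and 6 higher, and under 0.01 2 genes, 0 and 0. Exact permutation tests per gene, adjusted over all genes, called 0 genes, 0 members lower and 0 higher (4363 genes unadjusted). Limma voom on recovered fragments called 2132 genes, 5 members lower and 3 higher.

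Replicate numbers give no pairing: deviations of same-numbered libraries correlated between -0.0574 and 0.139, and 2 of 5 WT libraries correlated best with their own number. A replicate block gave 1271 genes called in KO against WT, 4 members lower (Egr3 in place of Egr4) and 1 higher, Gadd45b.

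The olfactory bulb covariate gave 0 genes, 0 members lower and 0 higher, a member median of 0.19, and log2 differences of 0.21 for Junb, 0.61 for Npas4, 0.075 for Dusp1 and 0.25 for Arc, each negative with genotype alone. Without the library labelled KO3 as well, it gave 6 members higher, a median of 0.21, and 0.24, 0.66, 0.088 and 0.25 for these 4 genes. Libraries with at least 1 FPKM of Omp gave 1 gene, 0 members lower and 0 higher, with 0.23 for Junb, 0.0027 for Nr4a1, 0.26 for Dusp1 and 0.069 for Arc; without the library labelled KO3 they gave 7 lower and 5 higher, with 0.29 for Junb, 0.31 for Dusp1 and 0.066 for Arc. Libraries under 1 FPKM, with KO5 the lone KO library and assumed to vary like WT, gave 305 genes, 1 member lower and 5 higher, and 1.33 for Npas4. The cause of these shifts was not tested.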

Other observations

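Of 8 genes encoding receptors or partners of Bdnf, activin and the neuronal pentraxins, among them Ntrk2, Acvr2a and Nptxr, 0 passed in limma with all libraries and genotype alone or in limma voom. At an unadjusted p under 0.05 in limma with all libraries, 1 was lower and 2 higher. Of all 14497 genes tested 4758 were under that threshold. The median log2 difference of the 8 was -0.017. Without the library labelled KO3, Acvr1 passed higher (limma adjusted p = 0.0236), and with the olfactory bulb covariate as well, Gria4 passed lower (limma adjusted p = 0.0123). Of 11 genes known to be induced by glucocorticoids, 1 rose and 1 fell, where 9.77% of all genes tested rose and 3.51% fell. Cdkn1a averaged 14.7 ± 1.5 FPKM over the WT mice against 22.4 ± 6.9 FPKM over the KO mice (SD, n = 5 each) and Zbtb16 16.7 ± 4.31 FPKM over the WT mice against 10.3 ± 1.88 FPKM over the KO mice (SD, n = 5 each). The median log2 difference of that list was -0.063, beside 0.078 over all genes tested.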
